A study of Mus musculus with 4 samples.

Results

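Axon guidance ligands and receptors were measured by RNA sequencing in cultured mouse astrocytes with and without OASIS. The members are the protein-coding genes whose symbols place them in 9 families. There are 20 semaphorins, 9 plexins, 2 neuropilins, 8 ephrins, 14 Eph receptors, 3 Slit ligands, 4 Robo receptors, 4 netrins and 5 netrin receptors (Dcc and the Unc5 genes). They make up 69 of the 55487 genes counted and were selected by symbol. No cut on a measured value was used, but the families were chosen with earlier results of these data known. A mean of at least 1 CPM over the 4 libraries (counts scaled to library size and composition) was reached by 59 of the 69. The 10 members below it were Epha1, Epha6, Epha8, Epha10, Ntn5, Robo4, Sema3g, Sema7a, Slit1 and Unc5a, of which Ntn5 and Sema3g had no count in any library. Of the 59, Robo3 passed only through its wild-type level and Dcc and Unc5d only through their deficient level, so some difference between genotypes was built into those 3.

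The libraries were 1 of OASIS deficient astrocytes given doxorubicin, 1 of OASIS deficient astrocytes left untreated, 1 of OASIS wild type astrocytes given doxorubicin and 1 of OASIS wild type astrocytes left untreated. OASIS, encoded by Creb3l1, is a CREB/ATF transcription factor anchored in the endoplasmic reticulum membrane, whose cut front part moves to the nucleus. Cultures that had passed confluence met doxorubicin, which breaks DNA through topoisomerase II, for 1 h at 1 µg/ml, and RNA was taken 24 h later. All cultures shared medium with serum and antibiotics. The labels do not give the allele behind the deficiency, the age of the mice, the brain region or the number of animals per culture. With 1 library per group there is no replicate, so differences between single libraries are given without p-values.

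Guidance families steer growing axons and migrating cells by contact or by secreted cues. Secreted class 3 semaphorins bind neuropilins, which signal through A-type plexins, while membrane-bound semaphorins mostly bind plexins directly. Ephrins are anchored in the membrane and bind Eph receptor tyrosine kinases on the neighbouring cell, with signals passing both ways. Slit ligands repel cells through Robo receptors, and netrins attract through Dcc or repel through Unc5 receptors. In astrocytes these families are known for boundary formation, scar formation after injury and contacts with synapses and vessels.

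Promoter sequences of 3 receptor genes that were lower in both deficient libraries are shown because the binding words of CREB/ATF factors, the class of OASIS, and of p53, the factor activated by DNA breaks, were searched in them with different outcomes. The windows come from RefSeq on GRCm38.p6, run from 250 bases before to 50 bases after an annotated start, and are printed in the direction of the gene. Epha2 lies at chr4:141300971-141301270 (plus strand), Robo1 at chr16:72662899-72663198 (plus strand) and Robo3 at chr9:37433126-37433425 (minus strand). The Robo1 window belongs to a start inside the span of the gene. Capitals mark a match.
Epha2: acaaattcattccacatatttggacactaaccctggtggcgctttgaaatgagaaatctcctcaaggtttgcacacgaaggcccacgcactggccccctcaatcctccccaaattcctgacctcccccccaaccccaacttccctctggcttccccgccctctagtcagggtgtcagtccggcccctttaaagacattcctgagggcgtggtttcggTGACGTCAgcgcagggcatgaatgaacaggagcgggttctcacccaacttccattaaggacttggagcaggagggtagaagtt
Robo1: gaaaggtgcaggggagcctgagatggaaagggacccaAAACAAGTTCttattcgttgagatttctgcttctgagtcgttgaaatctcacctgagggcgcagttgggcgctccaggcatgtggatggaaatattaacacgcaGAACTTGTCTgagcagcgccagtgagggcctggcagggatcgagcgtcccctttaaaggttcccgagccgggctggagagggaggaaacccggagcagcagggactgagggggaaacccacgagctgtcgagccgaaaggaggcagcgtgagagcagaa
Robo3: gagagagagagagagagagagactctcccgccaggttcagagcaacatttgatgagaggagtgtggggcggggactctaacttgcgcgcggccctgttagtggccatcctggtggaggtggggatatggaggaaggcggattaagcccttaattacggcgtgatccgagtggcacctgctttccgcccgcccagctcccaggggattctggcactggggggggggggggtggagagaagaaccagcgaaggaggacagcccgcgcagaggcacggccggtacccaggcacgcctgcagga
The words searched on both strands were TGACGTCA (the cAMP response element), its variant TGACGTG, the related word CCACGTG and the p53 decamer. The decamer is only part of a full p53 element, and it was chosen after the values of the genes were known. The same core cannot match more than 1 of the first 3 words. Epha2 held TGACGTCA with its first base at position -33 from the start, Robo1 held the p53 decamer at -213 and at -109, and Robo3 held none of the 4.

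RefSeq windows were matched by symbol for 59 of the 69 members, 75 windows in all. TGACGTCA occurred in 1 of them (Epha2) and in 1.79% of the 32851 mouse promoters searched. TGACGTG occurred in 0 of the 75 windows and in 2.012% of all promoters. CCACGTG occurred in 4 windows (Robo2, Sema3e, Sema4b and Sema6d) and in 3.875% of all promoters. The Robo2 window with it, chr16:75447244-75447543, lies outside the annotated span of the gene, 73891839 to 74411825. The Robo2 window at the start of that span held no match. The p53 decamer occurred in 5 windows (Efna4, Ntn3, Plxna3, Robo1 and Sema4d) and in 8.356% of all promoters. Of the 7 genes with a window that were lower in both deficient libraries by at least 2-fold, 1 held TGACGTCA and 1 the p53 decamer. The 3 genes with a window that were higher in both held none of the 4 words. A match is a description of letters, and a window without one shows only that those letters are not in it.

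Total counts per library ran from 17481188 to 22559613, and the upper limit for a gene without counts, set at 3 counts, was 0.131 to 0.174 CPM. Intervals on ratios are exact binomial 95% intervals, and intervals and limits cover counting error only. Creb3l1 stood at 11.9 CPM in deficient with doxorubicin against 27.8 CPM in wild type with doxorubicin, and at 15.1 CPM in deficient untreated against 48.5 CPM in wild type untreated, so it was lower in both deficient libraries and absent from neither. Libraries labelled doxorubicin had 2742 (deficient) and 2547 (wild type) counts of Xist and 0 counts of 4 Y-linked genes, whereas untreated libraries had 0 and 1 counts of Xist and 353 to 1567 of each Y-linked gene. Doxorubicin and the sex of the cultures therefore cannot be told apart, and the comparisons of genotype stay within 1 apparent sex. Astrocyte markers were present in every library, 10 of 10 with counts, and summed to 10060 and 11360 CPM in the deficient libraries with doxorubicin and untreated, against 3906 and 4006 CPM in those of wild type. In the same order of treatments, dividing-cell markers summed to 1256 and 855 CPM in deficient against 62.3 and 53.2 CPM in wild type, with 10 of 10 higher in deficient in both pairs and Aurkb at 0 in both wild-type libraries. Oligodendrocyte lineage markers summed to 1087 and 1085 CPM in deficient against 347.5 and 474.5 CPM in wild type, with 12 of 12 higher in deficient in both pairs. Mog and Gpr17 were at 0 in both wild-type libraries, and Sox10 and Mobp also in wild type with doxorubicin. Neuron markers summed to 590.3 and 554.2 CPM in deficient against 256.3 and 296.2 CPM in wild type, with 9 and 10 of 12 higher in deficient. Nefl was at 0 in deficient with doxorubicin, Dcx and Snap25 in both wild-type libraries, Elavl4 in wild type with doxorubicin and Rbfox3 in wild type untreated. Endothelial and pericyte markers summed to 13.4 and 15.2 CPM in deficient against 29.7 and 29.3 CPM in wild type, with 3 and 6 of 12 at 0 in deficient and 3 of 12 in each wild-type library. Fibroblast and meningeal markers summed to 982 and 1049 CPM in deficient against 975 and 1208 CPM in wild type, and ependymal markers to 137 and 139 CPM against 167 and 131 CPM. Of the astrocyte markers 10 of 10 with doxorubicin and 9 of 10 untreated were higher in deficient, and Gfap alone had 5168 and 6589 CPM in deficient with doxorubicin and untreated, against 1120 and 1140 CPM in wild type. The astrocyte, dividing, oligodendrocyte lineage, neuron and endothelial lists moved with the genotype comparisons given here, and their part in them was not tested. In whole cultures, fewer cells of a type and less RNA per cell cannot be told apart.

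Guidance transcripts were a small part of the RNA, and their sum was lower in deficient cultures. The sum gives most weight to abundant members. Of the 59 members past 1 CPM, 32 (54.2%) were lower by any amount in deficient with doxorubicin and 33 (55.9%) untreated. Of all genes, 48.5% and 51.9% were. The 69 members took 0.1693% of counts in deficient with doxorubicin against 0.2053% in wild type with doxorubicin, and 0.1613% in deficient untreated against 0.2239% in wild type untreated. On the deposited TPM scale, which corrects for transcript length and allows genes to be compared, they summed to 589.9 TPM against 786.6 TPM with doxorubicin and to 569.8 TPM against 852.7 TPM untreated. Plexins were the most abundant family in every library, with 212 and 227 TPM in deficient against 305 and 326 TPM in wild type (doxorubicin and untreated). Plxnb2, a receptor for class 4 semaphorins, alone averaged 212.6 TPM over the 4 libraries. The member with the highest mean TPM in the other families was Ntn4 among netrins (41.8), Nrp1 among neuropilins (38.1), Sema6a among semaphorins (30.9), Epha4 among Eph receptors (23.1), Efnb1 among ephrins (14.3), Slit3 among Slit ligands (10.2), Robo3 among Robo receptors (7.50) and Unc5b among netrin receptors (5.32).

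**Figure D1:**
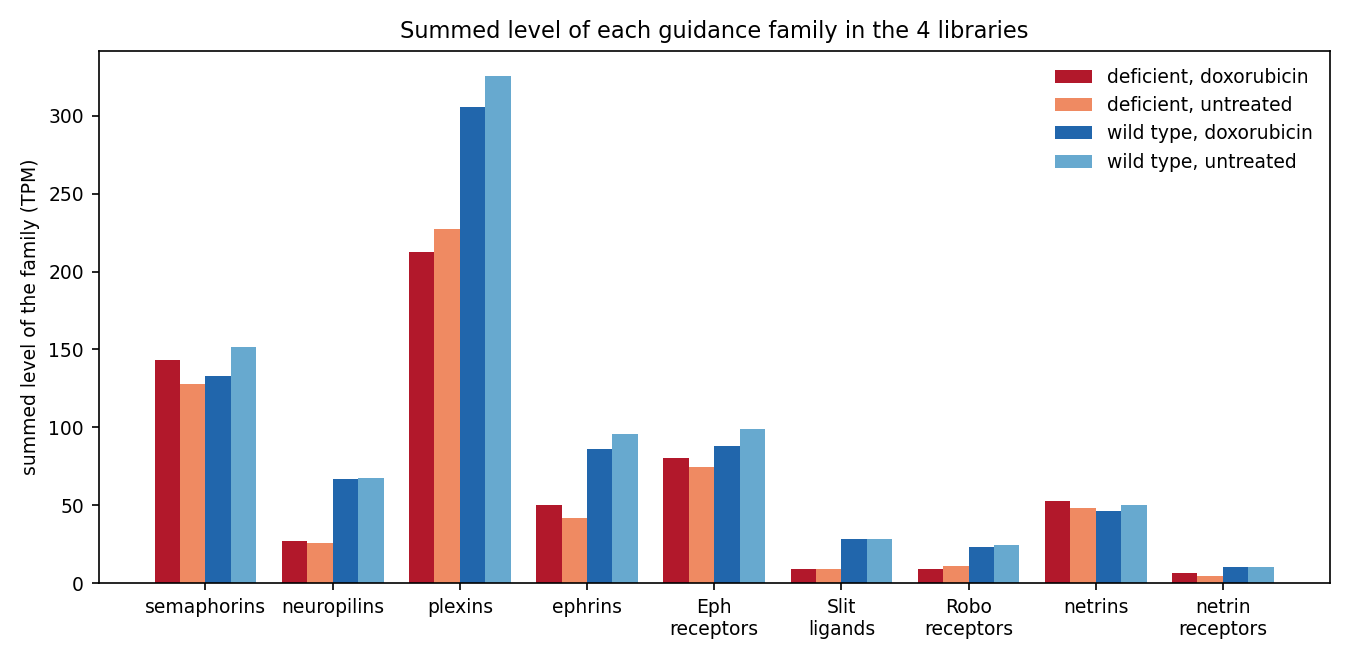
Summed TPM of each guidance family (vertical axis) in the 4 libraries, 1 bar per library and no error bars because each group is 1 library. Plexins stand highest in all 4 libraries, and the deficient bars of plexins, neuropilins, ephrins, Eph receptors, Slit ligands, Robo receptors and netrin receptors stand below both wild-type bars.

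Summed TPM by family was lowest in deficient relative to wild type in Slit ligands, neuropilins and Robo receptors, an order that did not hold on CPM. The ratio of deficient to wild type was 0.312 with doxorubicin and 0.309 untreated for Slit ligands, 0.400 and 0.381 for neuropilins and 0.398 and 0.437 for Robo receptors, all on summed TPM. Ephrins stood at 0.586 and 0.440, netrin receptors at 0.619 and 0.476 and plexins at 0.695 and 0.699. On summed CPM the ratio was 0.466 and 0.457 for neuropilins, 0.564 and 0.473 for Slit ligands, 0.656 and 0.497 for ephrins, 0.674 and 0.590 for Robo receptors and 0.693 and 0.532 for netrin receptors. These sums follow the most abundant members and do not give the direction of most members. Of the 4 measured netrin receptors, 3 were higher in deficient in both treatments. Of these 3, Dcc and Unc5d reached the minimum level only through deficient, so part of this direction was built in. The median log2 ratio of the 4 (1 CPM added) was 1.144 with doxorubicin and 0.76 untreated. Of the 9 plexins, 6 were higher with doxorubicin and 4 untreated, with medians of 0.181 and -0.175. The direction of the sum in the remaining families was not settled, because it turned with treatment or scale. Eph receptors had 0.915 and 0.752 on TPM but 1.07 with doxorubicin on CPM, semaphorins had 1.08 and 0.842 on TPM, and netrins had 1.14 and 0.959 on TPM but 1.25 and 1.16 on CPM.

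Which members differ between OASIS deficient and wild type astrocytes was read from each treatment as a pair of libraries and from a model of genotype and treatment over all 4 libraries. With doxorubicin, 11 of the 59 members (18.6%) were lower in deficient by at least 2-fold and 12 (20.3%) were higher, against 9.55% and 10.7% of all 15596 genes tested. Untreated, 11 members (18.6%) were lower and 9 (15.3%) higher, against 10.2% and 9.79% of all genes. In both treatments the same 8 members (13.6%) were lower, namely Epha2, Efna3, Efnb2, Unc5b, Nrp1, Plxna1, Robo1 and Robo3, against 5.17% of all genes. Higher in both were 6 members (10.2%), Epha5, Efnb3, Dcc, Plxna4, Sema3d and Sema5a, against 5.76% of all genes. The median log2 ratio of the members, computed after adding 1 CPM, was -0.15 with doxorubicin and -0.21 untreated, beside 0.02 and -0.03 for all genes. On TPM the median of all genes itself moved to -0.09 and -0.20, and that of the 52 members measured there to -0.31 and -0.38. On that scale 4 of 52 members with doxorubicin and 3 of 52 untreated were higher by at least 2-fold, a smaller share than the 8.55% and 7.72% of all genes, so the higher share of members given for CPM did not hold there. With 5 CPM added before the ratio, 3 of 59 were higher untreated, close to the 4.89% of all genes.

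**Figure D2:**
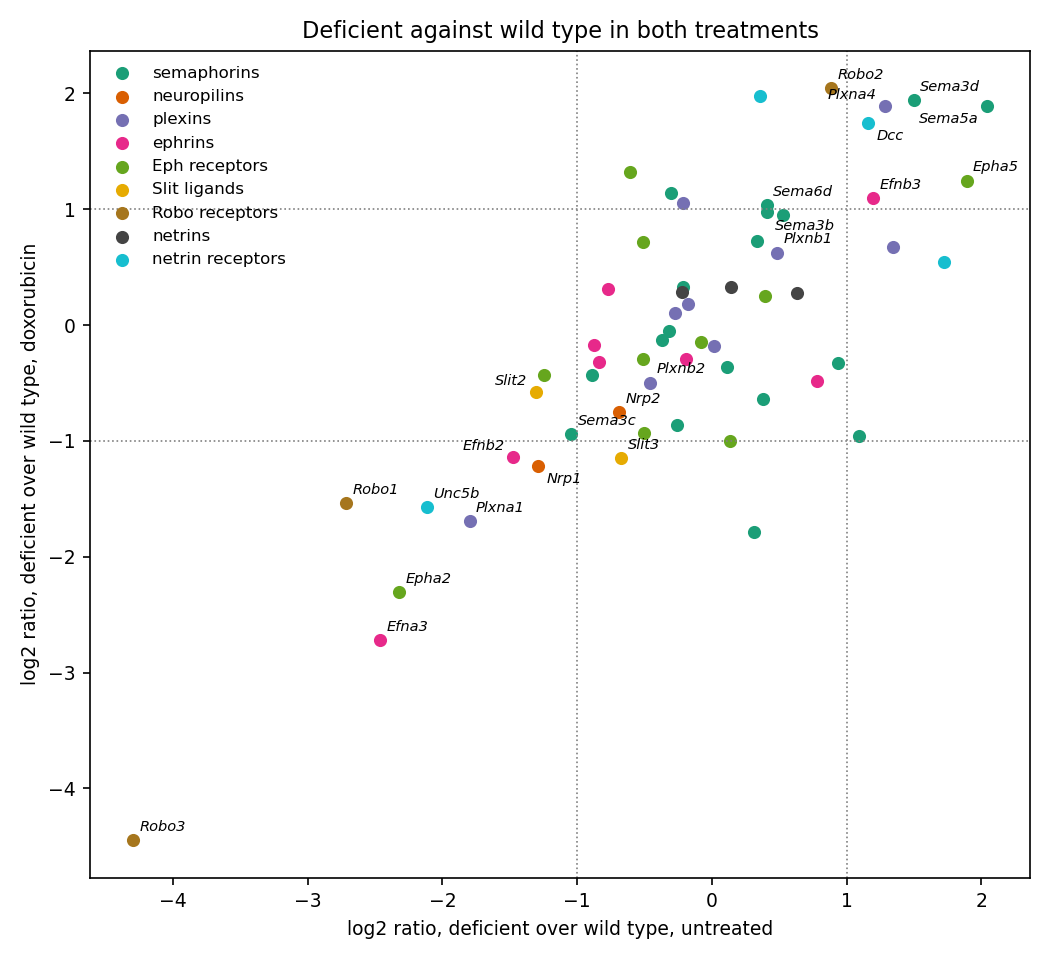
Log2 ratio of deficient over wild type with doxorubicin (vertical axis) against the same ratio untreated (horizontal axis) for the 59 tested members, coloured by family, with dotted lines at 2-fold. Named points are members called in the additive test or past 2-fold in both treatments; Robo3 lies alone at the lower left, and 8 members lie past 2-fold at the lower left and 6 at the upper right.

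In the additive model, fitted with edgeR's quasi-likelihood test and adjusted over all 15596 genes by Benjamini-Hochberg, 13 of the 59 members (22%) fell in deficient and 8 (13.6%) rose at an adjusted p of at most 0.05. Of all genes, 10.6% fell and 12.6% rose. Together 35.6% of the members and 23.2% of all genes were called. The model has 1 residual degree of freedom, which holds any dependence of the doxorubicin response on genotype together with noise, and its p-values speak only to the spread of these 4 libraries. Every one of the 21 called members had the direction of the fit in both treatments on CPM, on TPM and on total counts. A call itself favours members whose treatments agree, and these scales share the same libraries, so this is a description and no further support. Of the 14 members past 2-fold in both treatments 12 were called, and Efnb3 and Dcc were not. Robo3 and Dcc, both among the 14, reached the minimum level only through 1 genotype.

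**Figure D3:**
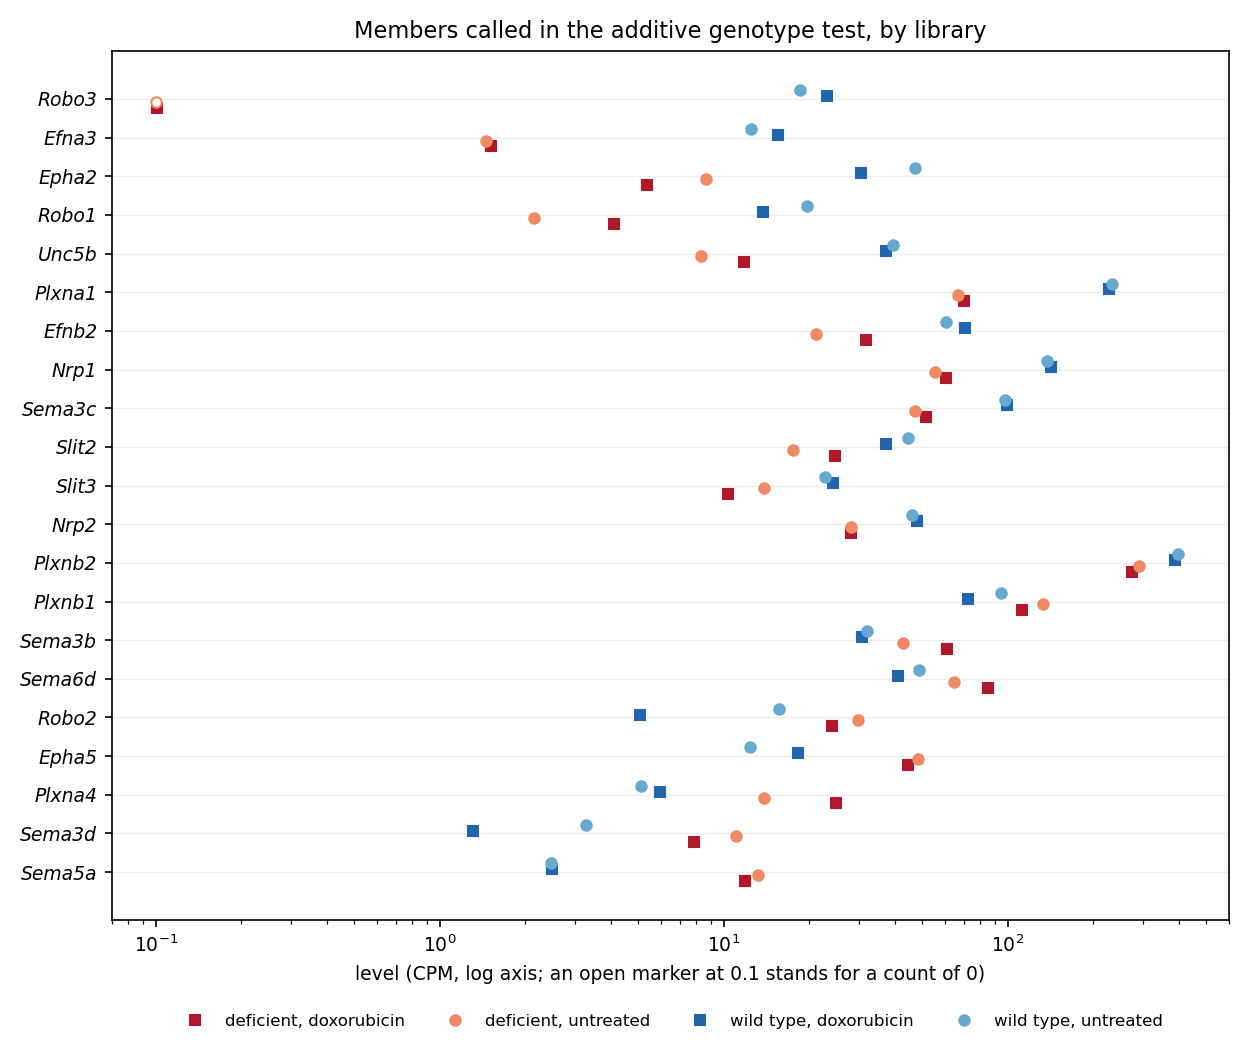
CPM (horizontal log axis) of the 21 members called in the additive genotype test, 1 marker per library; the open marker at 0.1 stands for a count of 0. For each gene the 2 deficient markers lie on the same side of the 2 wild-type markers, with the widest gap in Robo3 and narrow gaps in Plxnb1, Plxnb2 and Sema3b.

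Among the Robo receptors, Robo3 was near absent from deficient cultures and Robo1 was low, while Robo2 was higher. Robo3 (ENSMUSG00000032128.15, GRCm38 chromosome 9, 37415669 to 37433246, minus strand), a divergent Robo known from axons that cross the midline, had 2 counts in deficient with doxorubicin against 527 in wild type with doxorubicin, and 0 counts in deficient untreated against 371 in wild type untreated. In CPM these were 0.101 against 23.0 and 0 against 18.6. Both deficient libraries were thus at the limit of detection and both wild-type libraries well above it. With doxorubicin the ratio was 0.00439 (0.000531 to 0.0160), and untreated the deficient level was at least 106.9-fold lower (3 counts per library as the limit). The additive model gave an adjusted p of 3.9e-07 by edgeR. Robo3 reached the minimum level only through wild type, so some difference was built into its entry to that test. Its fitted change is not printed because it depends on how a count of 0 is treated.

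Robo1 (GRCm38 chromosome 16, 72308306 to 73046095, plus strand), a Slit receptor, had 4.10 CPM in deficient with doxorubicin against 13.8 CPM in wild type with doxorubicin, and 2.15 CPM in deficient untreated against 19.7 CPM in wild type untreated. It fell by 2.45 in log2 units in the additive model (SE 0.485, adjusted p 0.00164 by edgeR). Robo2, the related Slit receptor, went the other way, with 24.0 CPM in deficient against 5.07 CPM in wild type with doxorubicin and 29.7 CPM against 15.7 CPM untreated. Robo2 rose by 1.57 (SE 0.362, adjusted p 0.00496 by edgeR, or 0.092 without treatment in the model), and the gap was wider with doxorubicin, where its ratio was 4.74 (3.86 to 5.86), than untreated, where it was 1.90 (1.65 to 2.19). The wild-type level of Robo2 in the doxorubicin library was the lowest of its 4 values. Robo4, known from endothelium, had at most 1 count in any library.

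Both Slit ligands that passed the filter fell. Slit2 had 24.6 CPM in deficient against 37.2 CPM in wild type with doxorubicin and 17.5 CPM against 44.7 CPM untreated, a fitted change of -0.97 (SE 0.261, adjusted p 0.0130 by edgeR). Slit3 had 10.4 CPM in deficient against 24.2 CPM in wild type with doxorubicin and 13.9 CPM against 22.7 CPM untreated, a fitted change of -0.97 (SE 0.322, adjusted p 0.0405 by edgeR). The call of Slit3 was lost by DESeq2 (adjusted p 0.097), with no minimum level (0.0886 by edgeR) and without treatment in the model (0.0538 by edgeR). Neither ligand had a deficient library that reached a wild-type one. On TPM the gap of Slit3 was wider, with 3.77 TPM against 18.02 TPM with doxorubicin and 4.74 TPM against 14.2 TPM untreated. Slit1, the ligand most restricted to the nervous system, stayed under the filter, with 0 counts in deficient against 14 in wild type with doxorubicin and 16 against 18 untreated.

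Among 20 listed partners of Slit and Robo signalling, all measured, 3 fell and 3 rose with deficiency, beside 10.6% and 12.6% of all genes. Sdc1, a heparan sulfate proteoglycan of the cell surface, had 29.9 CPM in deficient against 131 CPM in wild type with doxorubicin and 30.3 CPM against 122 CPM untreated, and it fell by 2.07 in log2 units (SE 0.167, adjusted p 2.35e-07 by edgeR). Flrt3, a membrane protein that binds Robo1, had 10.8 CPM against 2.58 CPM with doxorubicin and 13.8 CPM against 6.48 CPM untreated (fitted change 1.57, SE 0.481, adjusted p 0.0270 by edgeR). Nell2, a secreted ligand of Robo3, had 34.8 CPM against 15.2 CPM with doxorubicin and 23.9 CPM against 11.4 CPM untreated (1.13, SE 0.288, adjusted p 0.00935 by edgeR). The deficient cultures thus had more transcript of this Robo3 ligand and almost none of Robo3. Flrt1 had a larger fitted change of 1.84 that did not pass (adjusted p 0.280 by edgeR), on counts of 49 against 26 with doxorubicin and 38 against 7 untreated, and it too reached a mean of 1 CPM only through deficient.

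Both neuropilins fell. Nrp1 (GRCm38 chromosome 8, 128358604 to 128503363, plus strand), which binds class 3 semaphorins and VEGF, had 60.4 CPM in deficient against 142 CPM in wild type with doxorubicin and 55.5 CPM against 137 CPM untreated. Nrp2, with a preference for other class 3 semaphorins, had 28.1 CPM against 47.8 CPM with doxorubicin and 28.2 CPM against 46.0 CPM untreated. In both genes the libraries of a genotype lay close to each other and far from those of the other genotype. The fitted changes were -1.27 for Nrp1 (SE 0.149, adjusted p 1.38e-05 by edgeR) and -0.74 for Nrp2 (SE 0.221, adjusted p 0.0241 by edgeR). The call of Nrp2 was lost by DESeq2 (adjusted p 0.0554) and with no minimum level (0.052 by edgeR).

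Of the 9 plexins 2 fell, 2 rose and 5 did not pass. Plxna1 (GRCm38 chromosome 6, 89316314 to 89362620, minus strand), a signalling partner of neuropilins, had 69.9 CPM in deficient against 228 CPM in wild type with doxorubicin and 66.6 CPM against 234 CPM untreated. The ratio was 0.307 (0.289 to 0.325) with doxorubicin and 0.285 (0.267 to 0.304) untreated. It fell by 1.76 in log2 units (SE 0.134, adjusted p 1.28e-07 by edgeR). An antisense gene, Gm26811, shares 10.71% of the exon bases of Plxna1 and had 45 counts over the 4 libraries, and counts without strand cannot separate the pair. Plxna4, which acts with Nrp1 in the response of axons to Sema3a, moved the other way, with 24.9 CPM in deficient against 5.98 CPM in wild type with doxorubicin and 13.9 CPM against 5.12 CPM untreated (1.75, SE 0.390, adjusted p 0.00393 by edgeR). Plxna1 and Plxna4 were therefore opposed, while Plxna2 had 30.9 CPM against 27.1 CPM with doxorubicin and 35.8 CPM against 40.5 CPM untreated and did not pass (adjusted p 0.993 by edgeR).

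The B-type plexins, of which Plxnb1 and Plxnb2 are receptors for class 4 semaphorins, also divided. Plxnb2 had 274 CPM in deficient against 387 CPM in wild type with doxorubicin and 291 CPM against 399 CPM untreated, a fitted change of -0.48 (SE 0.107, adjusted p 0.00411 by edgeR). Plxnb1, the receptor of Sema4d, had 113 CPM against 72.7 CPM with doxorubicin and 134 CPM against 95.04 CPM untreated, a fitted change of 0.56 (SE 0.145, adjusted p 0.0102 by edgeR, or 0.061 without treatment in the model). Both changes were under 2-fold, and both are among the more abundant members, where counting error is small. Plxnb3 had 3.24 CPM against 1.66 CPM with doxorubicin and 3.95 CPM against 0.954 CPM untreated and did not pass (adjusted p 0.283 by edgeR). Plxnc1 and Plxnd1 had fitted changes of -0.09 each and did not pass.

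Of the 18 measured semaphorins, 1 fell and 4 rose in deficient cultures. Sema3c, a secreted ligand of neuropilins, had 51.5 CPM in deficient against 99.5 CPM in wild type with doxorubicin and 47.1 CPM against 98.0 CPM untreated, a fitted change of -1.004 (SE 0.165, adjusted p 0.000351 by edgeR). Its libraries fell into a low deficient pair and a high wild-type pair. Sema3b and Sema3d, secreted ligands of the same class, were higher instead. Sema3d had 7.89 CPM against 1.31 CPM with doxorubicin and 11.0 CPM against 3.26 CPM untreated (2.16, SE 0.573, adjusted p 0.0122 by edgeR), and Sema3b had 61.1 CPM against 30.6 CPM with doxorubicin and 42.8 CPM against 32.0 CPM untreated (0.71, SE 0.225, adjusted p 0.0321 by edgeR). The call of Sema3b was lost by DESeq2 (adjusted p 0.0675), with no minimum level (0.0689 by edgeR) and without treatment in the model (0.058 by edgeR). Sema3a, Sema3e and Sema3f had fitted changes of -0.33, -0.61 and -0.13 and did not pass.

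The other called semaphorins span the membrane. Sema5a, which carries thrombospondin repeats, had 11.9 CPM in deficient against 2.49 CPM in wild type with doxorubicin and 13.3 CPM against 2.46 CPM untreated. Its levels barely differed between treatments within a genotype. The ratio of deficient to wild type was 4.79 (3.58 to 6.52) with doxorubicin and 5.38 (3.94 to 7.49) untreated, and the fitted change was 2.34 (SE 0.5, adjusted p 0.00289 by edgeR). Sema6d, a ligand of Plxna1, had 85.2 CPM against 41.1 CPM with doxorubicin and 64.8 CPM against 48.6 CPM untreated (0.74, SE 0.198, adjusted p 0.0133 by edgeR). Sema6a, a ligand of Plxna2 and Plxna4 and the most abundant semaphorin by mean TPM, had 110 CPM against 87.2 CPM with doxorubicin and 88.7 CPM against 103 CPM untreated, and its direction was opposite in the 2 treatments (adjusted p 0.853 by edgeR). None of the 6 measured members of class 4, which are ligands of B-type plexins among others, was called, with fitted changes from -1.96 (Sema4f) to 0.63 (Sema4a). Sema5b, Sema6b and Sema6c had 0.55, 0.86 and 0.46 and did not pass either.

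The listed partners of semaphorins and plexins were all measured, and 7 of 20 rose while 2 fell, beside 12.6% and 10.6% of all genes. Rras, a small GTPase that plexins inactivate, had 108 CPM in deficient against 37.2 CPM in wild type with doxorubicin and 109 CPM against 49.1 CPM untreated (1.35, SE 0.172, adjusted p 3.27e-05 by edgeR). Farp2, an exchange factor that binds plexins, had 9.10 CPM against 3.45 CPM with doxorubicin and 7.79 CPM against 1.11 CPM untreated (2.07, SE 0.632, adjusted p 0.0261 by edgeR). L1cam, an adhesion molecule of axons that binds Nrp1, and Crmp1, a mediator of Sema3a signalling known from neurons, did not pass, with adjusted p of 0.072 and 0.0578 by edgeR. L1cam had 47 counts in deficient against 9 in wild type with doxorubicin and 29 against 0 untreated, and it reached 1 CPM only through its deficient level. Crmp1 had 19.3 CPM against 2.40 CPM with doxorubicin but 13.1 CPM against 11.1 CPM untreated.

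**Figure D4:**
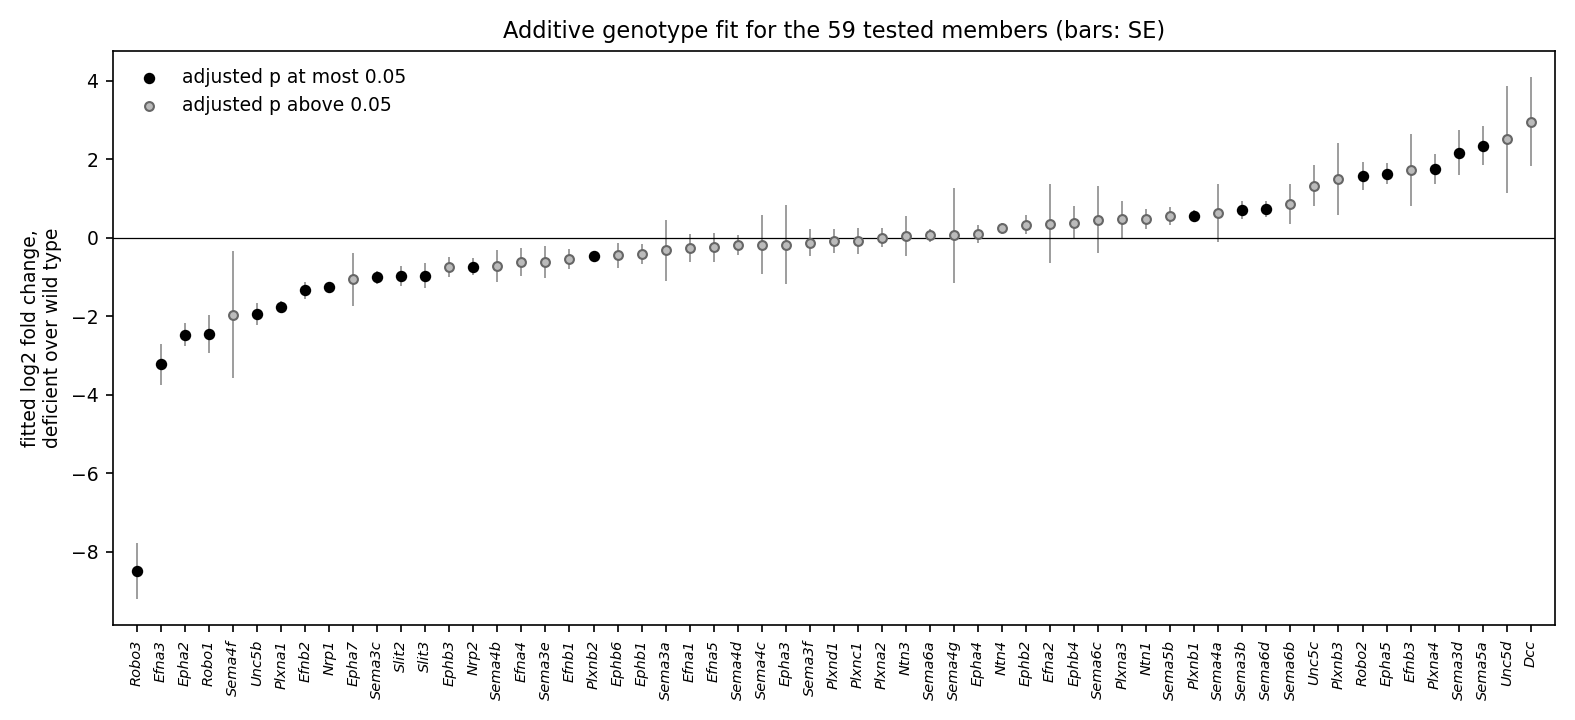
Fitted log2 change of deficient over wild type in the additive model (vertical axis, bars are SE) for the 59 tested members, in order of size; black points have an adjusted p of at most 0.05. From Robo3 at the left 13 black points lie below 0 and 8 lie above 0, up to Sema5a, and several low-count members with large fitted changes, such as Dcc and Unc5d, have wide bars and are not called.

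Ephrins and Eph receptors held 2 calls each. Of the 8 ephrins 2 fell and none rose. Efna3, an ephrin held in the membrane by a lipid anchor, had 1.52 CPM in deficient against 15.6 CPM in wild type with doxorubicin and 1.45 CPM against 12.5 CPM untreated. Its ratio was 0.0976 (0.0649 to 0.142) with doxorubicin and 0.116 (0.0738 to 0.176) untreated, and it fell by 3.23 in log2 units (SE 0.517, adjusted p 0.000272 by edgeR). The antisense gene Gm15998 shares 14.13% of the exon bases of Efna3 and had 47 counts over the 4 libraries. Efnb2, a transmembrane ephrin known from arteries, had 31.7 CPM against 71.0 CPM with doxorubicin and 21.1 CPM against 60.5 CPM untreated (-1.34, SE 0.211, adjusted p 0.000239 by edgeR). Both genes had every deficient library below every wild-type library. Efnb1, the most abundant ephrin by mean TPM, had 28.8 CPM against 32.7 CPM with doxorubicin and 26.1 CPM against 48.6 CPM untreated and did not pass (adjusted p 0.136 by edgeR). Efnb3, the ephrin of the midline, had 78 counts in deficient against 30 in wild type with doxorubicin and 60 against 19 untreated, and it did not pass either (fitted change 1.72, SE 0.918, adjusted p 0.203 by edgeR). Efna1, Efna2, Efna4 and Efna5 had fitted changes of -0.26, 0.36, -0.62 and -0.24 and did not pass.

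Of the 10 measured Eph receptors 1 fell and 1 rose. Epha2 (GRCm38 chromosome 4, 141301240 to 141329384, plus strand), a receptor best known from epithelium, had 5.36 CPM in deficient against 30.5 CPM in wild type with doxorubicin and 8.66 CPM against 47.2 CPM untreated. The ratio was 0.176 (0.142 to 0.216) with doxorubicin and 0.183 (0.153 to 0.218) untreated, so it was nearly the same in both. It fell by 2.48 in log2 units (SE 0.291, adjusted p 1.4e-05 by edgeR). Epha5, a receptor known from neurons and topographic maps, had 44.6 CPM against 18.2 CPM with doxorubicin and 48.5 CPM against 12.4 CPM untreated and rose by 1.63 (SE 0.261, adjusted p 0.000279 by edgeR). Epha4, a receptor known from astrocytes and motor axons and the most abundant Eph receptor by mean TPM, had 99.3 CPM against 60.1 CPM with doxorubicin but 61.5 CPM against 88.2 CPM untreated (adjusted p 0.799 by edgeR). Ephb3 had 16.9 CPM against 33.2 CPM with doxorubicin and 23.5 CPM against 33.7 CPM untreated, and at an adjusted p of 0.0508 by edgeR it missed the limit narrowly. The 8 Eph receptors that did not pass had fitted changes from -1.06 (Epha7, with 4.25 CPM against 6.07 CPM with doxorubicin and 1.86 CPM against 5.77 CPM untreated) to 0.38 (Ephb4).

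Partners of Eph and ephrin signalling numbered 18 measured of 20 listed, with 2 lower and 2 higher, close to the 10.6% and 12.6% of all genes. Vav3, an exchange factor that acts below Eph receptors, had 10.2 CPM in deficient against 27.6 CPM in wild type with doxorubicin and 6.97 CPM against 16.0 CPM untreated (-1.32, SE 0.344, adjusted p 0.0107 by edgeR). Adam10, the protease that cuts ephrins after they bind, had 110 CPM against 46.6 CPM with doxorubicin and 105 CPM against 69.1 CPM untreated (0.92, SE 0.178, adjusted p 0.00141 by edgeR). Vav2 and Abl2, with fitted changes of 0.71 and -0.69, did not pass (adjusted p 0.181 and 0.132 by edgeR).

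Netrins themselves held no call, and among their receptors 1 of 4 measured fell. Unc5b (GRCm38 chromosome 10, 60762593 to 60831581, minus strand), a repulsive netrin receptor also known from vessels, had 11.8 CPM in deficient against 37.2 CPM in wild type with doxorubicin and 8.31 CPM against 39.4 CPM untreated. It fell by 1.94 in log2 units (SE 0.287, adjusted p 0.000135 by edgeR), and both deficient libraries were far below both wild-type ones. Dcc, the attractive receptor, had 84 counts in deficient against 13 in wild type with doxorubicin and 29 against 4 untreated. Its ratios were 7.48 (4.15 to 14.6) and 8.39 (2.95 to 32.8), and the fitted change of 2.95 did not pass (SE 1.14, adjusted p 0.075 by edgeR). Unc5c, another repulsive receptor, had 10.2 CPM against 6.68 CPM with doxorubicin and 10.6 CPM against 2.51 CPM untreated (1.32, SE 0.530, adjusted p 0.0862 by edgeR). Unc5d had 65 counts against 2 with doxorubicin and 47 against 38 untreated, so its 2 deficient libraries were alike and its wild-type libraries were not (adjusted p 0.215 by edgeR). Ntn4, a netrin that resembles laminins and the most abundant netrin, had 123 CPM against 97.7 CPM with doxorubicin and 115 CPM against 104 CPM untreated (adjusted p 0.265 by edgeR), and Ntn1, the netrin of the floor plate, had 29.8 CPM against 24.3 CPM and 29.7 CPM against 18.8 CPM (adjusted p 0.220 by edgeR).

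Partners of netrins and of repulsive guidance molecules numbered 18 measured of 20 listed, with 2 lower and 3 higher, beside 10.6% and 12.6% of all genes. Fyn, a kinase that acts with Dcc, had 154 CPM in deficient against 81.6 CPM in wild type with doxorubicin and 143 CPM against 73.0 CPM untreated (0.94, SE 0.141, adjusted p 0.000149 by edgeR). Dscam and Dscaml1, adhesion molecules known from neurons, did not pass (adjusted p 0.132 and 0.290 by edgeR). Dscam had 51 counts in deficient against 0 in wild type with doxorubicin and 58 against 27 untreated, and it reached a mean of 1 CPM only through its deficient level. Dscaml1 had 68 counts against 7 with doxorubicin and 46 against 41 untreated.

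Which members differ after doxorubicin was compared within each genotype, where the sex of the culture changes with the treatment label. In deficient astrocytes, 0 of 59 members were higher by at least 2-fold and 2 (3.39%) were lower, Sema4f and Sema4g, against 1.58% and 1.93% of all genes. In wild type astrocytes, 3 members (5.08%) were higher, Efna2, Unc5c and Sema6c, and 4 (6.78%) were lower, Ephb4, Unc5d, Robo2 and Sema4a, against 4.08% and 5.45% of all genes. No member passed 2-fold in both genotypes. The median log2 ratio of the members was 0.04 in deficient and -0.02 in wild type, beside 0.03 and 0.00 for all genes. In the additive model 0 of 59 members were called for doxorubicin by edgeR, DESeq2 or limma-voom, against 0.141% of all genes that fell and 0.0192% that rose in edgeR. An unadjusted p under 0.05 by edgeR was reached by 6 members (10.2%), Epha2, Ephb1, Ephb4, Plxnb1, Robo2 and Sema4d. Of all genes, 864 (5.54%) reached it. The lowest adjusted p of a member was 0.646 by edgeR, for Sema4d, which had 19.2 CPM with doxorubicin against 29.9 CPM untreated in deficient and 19.8 CPM against 37.5 CPM in wild type. None of the measured partners on the 4 lists was called for doxorubicin.

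Among members with a mean of at least 5 CPM, 3 passed 2-fold with doxorubicin in 1 genotype, all in wild type. Ephb4, the receptor of Efnb2 known from veins, had 6.33 CPM with doxorubicin against 31.6 CPM untreated in wild type, a ratio of 0.201 (0.166 to 0.241), and 17.3 CPM against 20.3 CPM in deficient, a ratio of 0.850 (0.731 to 0.990). Robo2 had 5.07 CPM against 15.7 CPM in wild type, a ratio of 0.323 (0.259 to 0.402), and 24.0 CPM against 29.7 CPM in deficient, a ratio of 0.807 (0.711 to 0.917). Both were thus lower with doxorubicin in both genotypes, by more in wild type. Unc5c had 6.68 CPM against 2.51 CPM in wild type, a ratio of 2.66 (1.92 to 3.74), and 10.2 CPM against 10.6 CPM in deficient, a ratio of 0.966 (0.787 to 1.19). The other 6 members past 2-fold had a mean under 5 CPM. Of the X-linked members, Efnb1 had 28.8 CPM against 26.1 CPM in deficient and 32.7 CPM against 48.6 CPM in wild type. Plxna3 had 13.7 CPM against 8.19 CPM in deficient and 6.07 CPM against 9.64 CPM in wild type. Plxnb3 had 3.24 CPM against 3.95 CPM in deficient and 1.66 CPM against 0.954 CPM in wild type. The part of the sex of the cultures in these values was not tested. Microglia markers, 12 of 12 with counts in every library, summed to 857 CPM with doxorubicin against 1242 CPM untreated in deficient and to 979 CPM against 1371 CPM in wild type, with 0 and 1 of 12 higher with doxorubicin. Dividing-cell markers summed to 1256 CPM against 855 CPM in deficient, with 10 of 10 higher with doxorubicin, and to 62.3 CPM against 53.2 CPM in wild type, with 5 of 10. In wild type, oligodendrocyte lineage markers summed to 347.5 CPM against 474.5 CPM and fibroblast and meningeal markers to 975 CPM against 1208 CPM, with 2 of 12 higher in each list, while in deficient 5 of 12 were higher in each. The part of these lists in the doxorubicin comparisons was not tested.

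**Figure D5:**
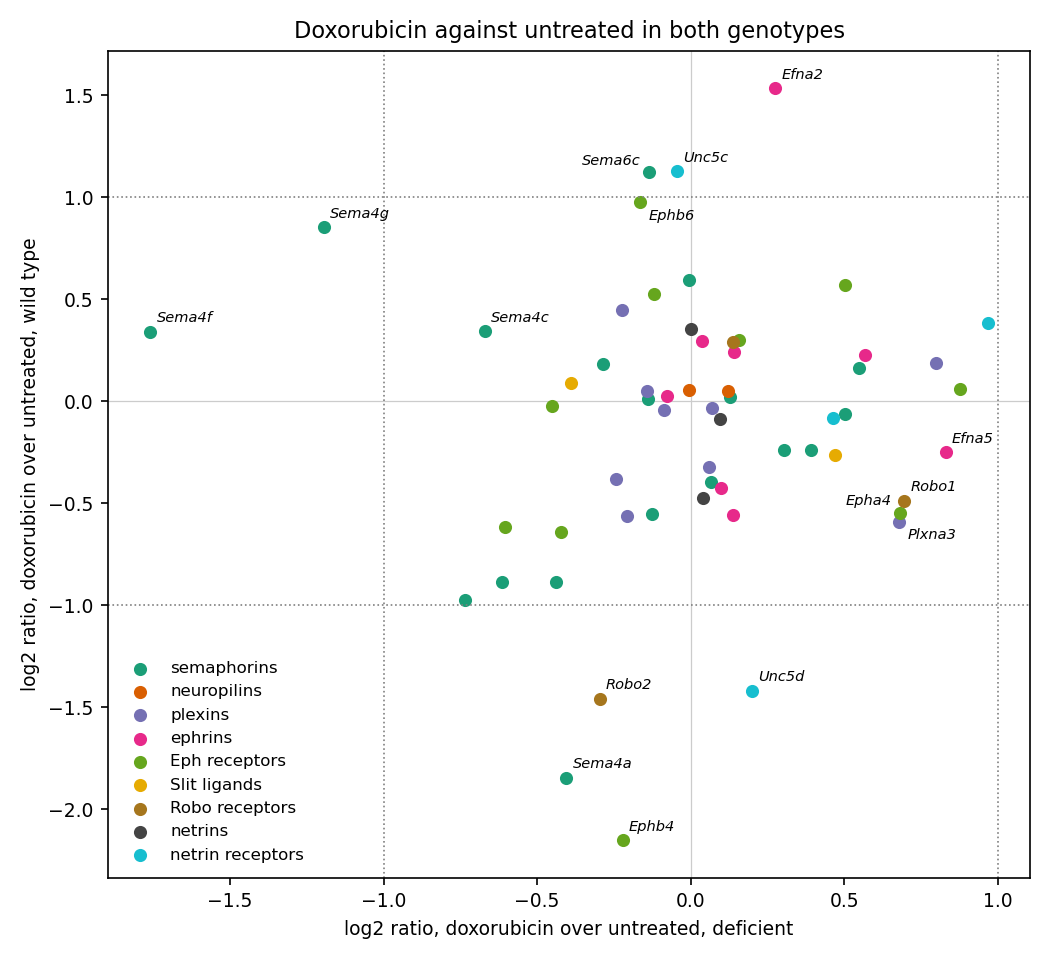
Log2 ratio of doxorubicin over untreated in wild type (vertical axis) against the same ratio in deficient (horizontal axis) for the 59 tested members, coloured by family, with dotted lines at 2-fold. No point lies past 2-fold on both axes; Ephb4, Sema4a, Robo2 and Unc5d lie low and Efna2, Unc5c and Sema6c high on the wild-type axis, and Sema4f and Sema4g lie at the left.

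The difference of both doxorubicin responses, deficient minus wild type, was past 2-fold upward in 8 members (13.6%) and downward in 7 (11.9%), against 7.66% and 6.05% of all genes. Upward were Epha4, Ephb4, Efna5, Unc5d, Plxna3, Robo1, Robo2 and Sema4a, and downward Ephb6, Efna2, Unc5c, Sema4c, Sema4f, Sema4g and Sema6c. The median of the members was 0.18, beside 0.02 for all genes. The widest differences were -2.10 for Sema4f, on 1 count with doxorubicin against 44 untreated in deficient and 60 against 37 in wild type, -2.05 for Sema4g and 1.93 for Ephb4. With 1 library per group these differences have no test, and on TPM that of Robo1 turned to -0.26.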

How the data were processed

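The 4 libraries of primary cultured mouse astrocytes are 1 for each combination of genotype and treatment. The kit was SMART-Seq v4, per the labels' protocols, which keeps no strand information. For each gene the authors deposited an estimated count of reads, which is not normalized, per the file headers. They also deposited a TPM value, scaled for transcript length and to a common library total, per the file headers. The submitters' processing notes name DRAGEN and GRCm38; the labels give no software version, annotation release or read filter. Estimated counts, fractional in 5810 to 6451 genes per library, were rounded. TPM served to compare genes and as an alternative scale. Symbols came from GENCODE vM21 by identifier without its version, with 55227 of 55487 matched and 260 not.

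Counts were scaled to CPM with TMM factors. Log2 ratios were taken of CPM plus 1, so changes of low genes are understated. A gene was past 2-fold at an absolute log2 ratio of at least 1 with a mean of at least 1 CPM. Ratios have exact conditional binomial 95% intervals. An additive model (genotype plus treatment) was fitted to 15596 genes with edgeR's quasi-likelihood test, with a common dispersion of 0.0863 and 14.3 prior degrees of freedom. Benjamini-Hochberg adjusted p-values were called at 0.05, and the script was tested on simulated data. Since no molecular identifiers are given, reads may repeat molecules and intervals are too narrow.

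The members, the lists of partners and markers, the tests and the rule for named genes were chosen with earlier results of these data known. That rule gives every library's value for members called in an additive test, past 2-fold in both genotype comparisons, past 2-fold with doxorubicin at a mean of at least 5 CPM, or highest in their family by TPM, and up to 4 partners per list by fitted genotype change. Other members are named to fill out a family. A gene that met the rule is not reported here. Ratios were recomputed with DESeq2 size factors, with total counts, with 0.5 or 5 CPM added, with a minimum of 5 CPM or none, and on TPM. The model was refitted with DESeq2, with limma-voom, with DESeq2 size factors, with both other minimums, without the other factor and without genes on X and Y. Software was R 4.3.3, edgeR 4.0.16, limma 3.58.1, DESeq2 1.42.0, Python 3.11.15, pandas 2.3.3 and matplotlib 3.10.9.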

Additional observations from a re-analysis of the deposited data

Results flagged for a closer look

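In 5 members the doxorubicin response had opposite signs in the deficient and wild-type pairs of libraries, with both counting intervals away from 1 and a difference of log2 responses of at least 1. With 1 library per group these differences were not tested, and the intervals cover counting error only. The share of all genes that meets the same rule is not given here, so the 5 are not read as many or few. The limit on the difference alone was passed upward by 7.66% and downward by 6.05% of all genes. Epha4 had a ratio of doxorubicin to untreated of 1.61 (1.50 to 1.74) in deficient and 0.681 (0.634 to 0.732) in wild type, a difference of 1.23. Efna5, a ligand of A-type Eph receptors, had 1.85 (1.55 to 2.22) in deficient and 0.832 (0.717 to 0.966) in wild type, a difference of 1.08. Plxna3, an X-linked partner of neuropilins, had 1.67 (1.36 to 2.07) in deficient and 0.630 (0.503 to 0.788) in wild type, a difference of 1.27. Robo1 had 1.91 (1.28 to 2.89) in deficient and 0.699 (0.601 to 0.813) in wild type, a difference of 1.18 that turned to -0.26 on TPM. Sema4g, a membrane-bound semaphorin, had 0.270 (0.150 to 0.465) in deficient and 2.57 (1.54 to 4.44) in wild type, a difference of -2.05. The sex of the cultures changes with the treatment label in both genotypes.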

How the results depend on the processing

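Counts of members past 2-fold depended on how low levels were treated. With a pseudocount of 5 CPM, members higher in deficient numbered 5 with doxorubicin and 3 untreated, beside 5.52% and 4.89% of all genes. In deficient 0 were then lower with doxorubicin, beside 0.173% of all genes. In wild type 0 were then higher and 2 lower with doxorubicin, beside 0.532% and 0.917%. The difference of responses was then upward in 2 and downward in 0, beside 2.0% and 1.1%. With a pseudocount of 0.5 CPM, 2 were higher with doxorubicin in deficient, beside 2.61% of all genes. With a minimum mean of 5 CPM, 5 of 46 members were higher in deficient untreated, beside 8.42% of all genes. Under that minimum 0 were lower with doxorubicin in deficient, beside 0.888%. In wild type 1 was higher and 2 were lower with doxorubicin, beside 2.03% and 3.03%. The difference of responses was downward in 2, beside 3.21%. On TPM, 4 with doxorubicin and 3 untreated of 52 were higher in deficient, beside 8.55% and 7.72% of all genes. With doxorubicin 0 were lower in deficient and 1 was higher in wild type, beside 2.53% and 4.34%. The difference was upward in 4 and downward in 2, beside 8.46% and 6.34%. It reversed for Robo1 there, to -0.26. The cause was not tested.

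In the additive genotype test, members that fell and rose numbered 11 and 7 by DESeq2, beside 1286 and 1660 of 15596 genes. Limma-voom gave 14 and 8, beside 1945 and 2320, and DESeq2 size factors 14 and 8, beside 1842 and 2255. A minimum of 5 CPM gave 14 and 9 of 46 members, beside 1720 and 2175 of 12048 genes. No minimum gave 11 and 7, beside 1208 and 1506 of 28077. Leaving treatment out of the model gave 12 and 5, beside 1299 and 1513 of 15596. Leaving out genes on X and Y gave 13 and 8, beside 1605 and 1893 of 15068. Calls were lost for Nrp2, Sema3b and Slit3 by DESeq2 (adjusted p 0.0554, 0.0675 and 0.097) and with no minimum (0.052, 0.0689 and 0.0886 by edgeR), and for Plxnb1, Robo2, Sema3b and Slit3 without treatment in the model (0.061, 0.092, 0.058 and 0.0538 by edgeR). Unc5c was gained with a minimum of 5 CPM (0.0485 by edgeR). Uncalled changes reversed: for doxorubicin by limma-voom in Plxna1 (-0.005), Robo1 (-0.28) and Slit2 (-0.025), and without genotype in the model in Plxna1 (-0.011), Robo1 (-0.29) and Slit2 (-0.012), and for genotype without treatment in Ephb4 (-0.009). No replicate numbers pair the libraries, since each group holds 1, and the additive model itself compares genotypes within treatments. No library could be left out because 3 leave no residual degree of freedom.

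Depth limits members under about 5 CPM, where few counts give wide intervals. The whole-culture counts cannot be assigned to cell types, and the doxorubicin comparisons carry the sex of the cultures.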

Other observations

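Members under the filter of 1 CPM entered no test of the report and no count of members past 2-fold there. Epha10, an Eph receptor without kinase activity, had 16 counts in deficient and 27 in wild type with doxorubicin, against 0 in both untreated libraries. Epha6 had 12 and Epha8 had 14 counts in deficient with doxorubicin and 0 in the other 3 libraries. Sema7a, a semaphorin with a lipid anchor, had 13 counts in deficient against 6 in wild type with doxorubicin and 36 against 0 untreated. Epha1 shares 236 exon bases with Zyx on the opposite strand, a gene with 12250 counts over the 4 libraries, so its few counts cannot be assigned to it without strand.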
